A study of Mus musculus with 12 samples.

Results

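The NF-kappaB genes described here are 10 subunits, inhibitors and feedback targets of the NF-kappaB transcription factor, chosen by name, namely Nfkb1, Nfkb2, Rela, Relb, Nfkbia, Nfkbie, Nfkbiz, Tnfaip3, Bcl3 and Icam1. A gene entered where a transcript cluster of the array (the probe group for one gene) carried its symbol alone in the platform annotation. This held for 9 of the 10, each with 1 cluster, and Nfkb1 was not analysed here. All 9 passed the filter on low values and are among the 15868 genes tested, out of 35511 transcript clusters in the deposited table. No measured value was used to choose them, but they were chosen with earlier results of these data known.

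Expression was measured on 12 Affymetrix Mouse Gene 1.0 ST arrays of cultured primary mouse keratinocytes, the cells that build the epidermis, all of strain FVB/N. MT-HGF keratinocytes carry a hepatocyte growth factor (HGF) transgene. HGF signals through the receptor MET. The prefix MT is not spelled out in the labels. The 4 groups, with 3 arrays each, were MT-HGF keratinocytes that had been mock transduced and given AG1478 for 24 h, untreated MT-HGF keratinocytes, wild-type keratinocytes transduced with v-rasHa, a viral ras oncogene (RAS), and wild-type control keratinocytes (WT). AG1478 blocks the kinase activity of EGFR, the receptor for epidermal growth factor. The AG1478-treated cells were kept in 8% serum, and their arrays came with other culture and extraction notes than the other 9. No vehicle-treated array was used here, so for AG1478 the treatment and the submission cannot be told apart. The other 9 arrays share a note of a transduction for 3 days, and they do not say what, if anything, the WT and untreated MT-HGF controls received. The labels give no age of the animals. They call the replicates of these 9 arrays biological without naming separate animals or cultures, so the p-values cover array-to-array spread that could be technical in part.

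NF-kappaB is a family of paired DNA-binding proteins. In resting cells the pairs are held in the cytoplasm by inhibitor proteins of the IkappaB family, and signals from cytokine and pattern receptors activate the IkappaB kinase, which marks the inhibitor for destruction and frees the pair to enter the nucleus. Among the first genes it then switches on are those of its own inhibitors, which closes a feedback loop. In skin the pathway is known for its part in keratinocyte survival, innate immune responses and inflammatory disease. A transcript level does not measure the activity of these proteins.

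The arrays gave log2 expression values, in which a step of 1 log2 unit is a doubling. Array medians lay between 6.77 and 6.84, and an array's mean correlation with the others of its group between 0.993 and 0.997. All 12 keratinocyte markers examined were above background on at least 1 array of each group, with Krt5 at 13.38 to 13.48 as group means. Background was taken for each array as the 95th percentile of 156 odorant, vomeronasal and bitter taste receptor genes that passed the filter, and lay between 6.80 and 7.14. From all 1228 receptor clusters, filtered or not, it would lie between 6.09 and 6.33. Counts above background, bounds and statements that a gene is at background use the higher threshold and depend on it. Group means such as 6.93 for Tnf in WT and 6.80 for Il18 in untreated MT-HGF cells exceed the lower one. By the higher threshold all 8 melanocyte markers were above background in each group, with Tyrp1 at 12.09 in AG1478-treated MT-HGF, 12.14 in MT-HGF, 12.57 in RAS and 12.47 in WT cells. Of 11 leukocyte markers 1 was above background in AG1478-treated MT-HGF, 1 in MT-HGF, 2 in RAS and 5 in WT cells, among them Cd68 in every group (8.96 to 10.25) and Lyz2 in WT cells (7.69). Of 8 endothelial markers 1, Egfl7 (7.50 to 7.84), was above background in each group. The defining leukocyte gene Ptprc (5.91 to 6.01) and the defining endothelial genes Cdh5 (6.01 to 6.14) and Pecam1 (6.09 to 6.42) lay below background as group means. Of fibroblast markers 7 of 10 measured were above background in AG1478-treated MT-HGF, MT-HGF and RAS cells and 8 in WT cells. The part of these cells in the members' results was not tested, and in such cultures fewer cells of a type and less RNA per cell cannot be told apart.

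The 250 bases before the RefSeq starts of the members with the largest changes, and of the feedback gene Tnfaip3, are given below (RefSeq, GRCm38.p6). The windows are Bcl3 at chr7:19822756-19823005 (minus strand), Nfkbia at chr12:55492648-55492897 (minus strand), Tnfaip3 start 2 at chr10:19015411-19015660 (minus strand), Icam1 at chr9:21015690-21015939 (plus strand), Nfkb2 start 1 at chr19:46304487-46304736 (plus strand) and Nfkb2 start 3 at chr19:46305680-46305929 (plus strand). Starts of a gene are numbered by rising genome position. The sequences are written 5′ to 3′ on the gene's strand, and capitals mark matches to either of a pair of motifs, the kappaB consensus of 10 bases and the shorter GGANNTTCC, each sought on both strands. The motifs can overlap each other.
Bcl3: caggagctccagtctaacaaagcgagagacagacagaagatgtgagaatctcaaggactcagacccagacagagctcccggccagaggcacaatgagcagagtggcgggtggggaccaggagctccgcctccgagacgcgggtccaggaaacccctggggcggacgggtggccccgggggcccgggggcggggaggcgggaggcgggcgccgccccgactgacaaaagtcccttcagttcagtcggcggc
Nfkbia: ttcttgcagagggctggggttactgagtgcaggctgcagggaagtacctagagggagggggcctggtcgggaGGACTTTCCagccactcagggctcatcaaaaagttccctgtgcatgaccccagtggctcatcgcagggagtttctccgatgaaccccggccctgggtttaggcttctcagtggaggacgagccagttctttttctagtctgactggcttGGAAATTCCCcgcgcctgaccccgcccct
Tnfaip3 start 2: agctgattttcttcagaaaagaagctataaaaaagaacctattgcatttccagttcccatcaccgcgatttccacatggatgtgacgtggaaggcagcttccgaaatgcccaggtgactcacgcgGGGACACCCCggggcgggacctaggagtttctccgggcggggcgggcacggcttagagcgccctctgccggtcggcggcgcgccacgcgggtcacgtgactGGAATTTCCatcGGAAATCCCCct
Icam1: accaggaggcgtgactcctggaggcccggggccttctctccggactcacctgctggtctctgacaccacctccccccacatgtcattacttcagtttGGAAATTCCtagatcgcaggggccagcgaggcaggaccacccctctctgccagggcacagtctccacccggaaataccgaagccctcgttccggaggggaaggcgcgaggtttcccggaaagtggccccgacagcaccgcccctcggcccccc
Nfkb2 start 1: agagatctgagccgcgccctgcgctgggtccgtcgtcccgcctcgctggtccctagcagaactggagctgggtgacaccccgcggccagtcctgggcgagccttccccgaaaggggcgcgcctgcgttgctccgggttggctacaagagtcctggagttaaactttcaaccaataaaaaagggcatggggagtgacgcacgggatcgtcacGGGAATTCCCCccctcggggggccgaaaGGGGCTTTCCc
Nfkb2 start 3: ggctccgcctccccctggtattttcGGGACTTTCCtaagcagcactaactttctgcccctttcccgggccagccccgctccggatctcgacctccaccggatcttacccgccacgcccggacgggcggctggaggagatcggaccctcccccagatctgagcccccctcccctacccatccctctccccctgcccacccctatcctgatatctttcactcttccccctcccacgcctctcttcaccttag

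Of the members, 7 had windows in the RefSeq table, 10 windows in all, and 3 (Nfkb1, Relb and Nfkbiz) had none. The kappaB consensus was found in 6 of the 10 windows, those of Nfkb2 (3 windows), Nfkbia, Nfkbie and Tnfaip3, and in 7.25% of 32851 windows of the same length across genes. GGANNTTCC was found in 6 windows of Nfkb2 (2), Nfkbia, Nfkbie, Tnfaip3 and Icam1, and in 3.59% of all windows. Matches in Nfkbia began 178 and 29 bases before the start, and the match in Icam1 153 bases before it. The windows of Bcl3 and Rela held neither motif. A match describes these letters alone, and the members include textbook targets of the factor.

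**Figure D1:**
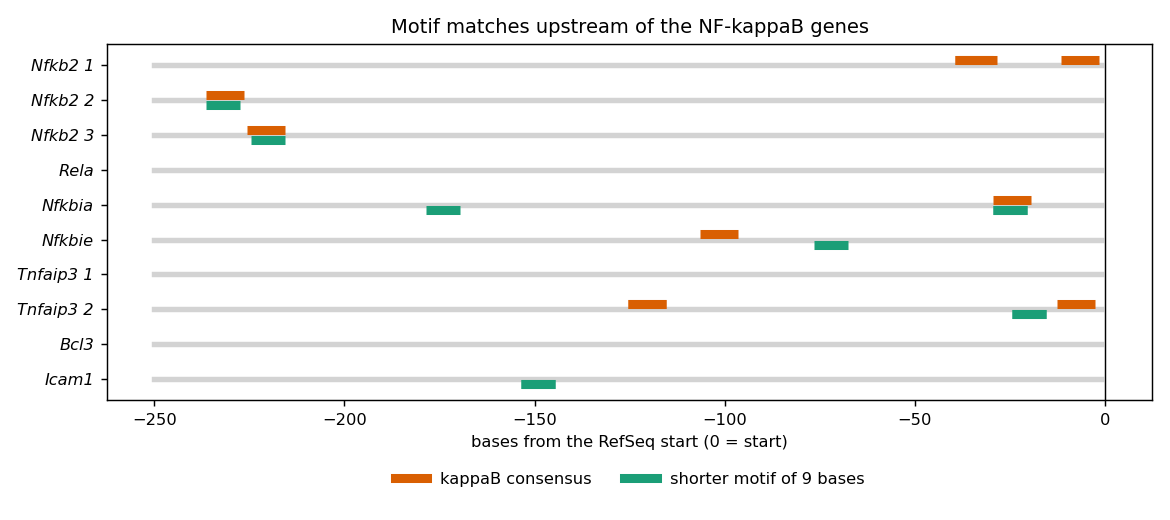
Positions of motif matches in the 250 bases before the RefSeq starts of 7 NF-kappaB genes (x axis, bases from the start at 0; one grey line per window, with the starts of a gene numbered by rising genome position). Orange bars are kappaB consensus matches and green bars matches to the shorter motif of 9 bases; the windows of Rela, Bcl3 and the Tnfaip3 start numbered 1 hold neither.

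Of the 9 genes measured, Nfkbia, Bcl3, Tnfaip3 and Nfkbiz were higher in MT-HGF than in WT cells and Nfkb2, Rela, Icam1 and Nfkbie lower, 4 in each direction at a limma adjusted p under 0.05 over all genes. Among all genes tested 17.1% were higher and 23.9% lower. The changes were modest, all under 2-fold. Nfkbie lay below background on every array, and its call was lost in 5 of the 6 refits that left out 1 array. In RAS cells 3 members were higher than in WT (Nfkbia, Bcl3 and Tnfaip3; 12.6% of all genes) and 2 lower (Nfkb2 and Icam1; 19.9% of all genes). After AG1478, Icam1 and Bcl3 were higher than in untreated MT-HGF cells (2 members; 6.57% of all genes), and 0 members were lower by limma (9.91% of all genes), with 1, Nfkbia, lower at an unadjusted p under 0.05. The 5 calls in RAS cells were 3 without RAS replicate 1, RAS replicate 3 or WT replicate 3, and the 2 after AG1478 were 1 without AG1478-treated replicate 3. The median difference of the 9 members was -0.20 log2 units in MT-HGF against WT (-0.03 over all genes), -0.10 in RAS against WT (-0.02) and 0.10 in AG1478-treated against untreated MT-HGF cells (0.02). All 3 medians count Nfkbie, and that of RAS against WT falls on Nfkbie itself, so it is not a measured level difference. Arrays without overlap between 2 groups were common, at 34.2% to 50.5% of all genes over the 6 comparisons. In MT-HGF against WT this held for 50.4% of all genes and 9 of 9 members.

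**Figure D2:**
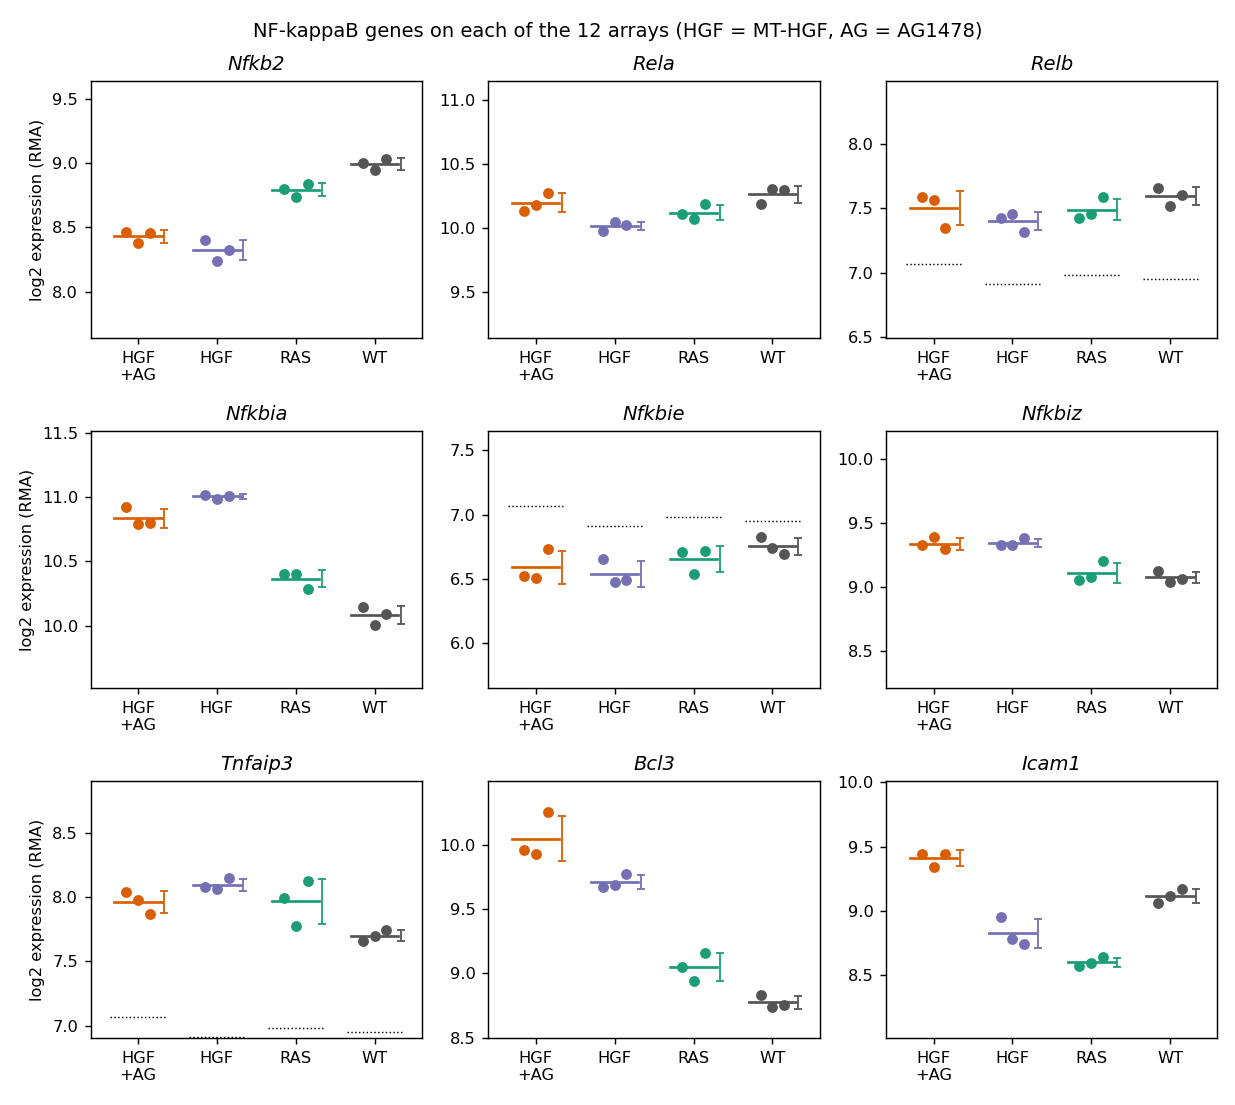
Log2 expression (y axis, RMA values, each panel spanning 2 log2 units) of the 9 NF-kappaB genes on each array; points are arrays, lines group means, bars 1 SD (n = 3 arrays) and dotted lines the mean array background where it falls within the panel. Nfkbia and Bcl3 are higher in both MT-HGF groups than in RAS and WT cells, Nfkb2 is lower there, and Nfkbie lies below background on every array.

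Nfkb2 encodes the precursor of a DNA-binding subunit of the non-canonical pathway. It stood at 8.47, 8.37 and 8.45 log2 units in AG1478-treated MT-HGF cells, 8.40, 8.24 and 8.32 in MT-HGF cells, 8.80, 8.74 and 8.84 in RAS cells and 9.0, 8.94 and 9.03 in WT cells. The WT arrays were highest, the RAS arrays next, and both MT-HGF groups lay below them with overlapping values. MT-HGF cells were 1.59-fold lower than WT (-0.67 ± 0.064 log2 units; SE, n = 3 each; limma adjusted p = 2.56e-07). They were also lower than RAS cells (-0.47; limma adjusted p = 5.06e-05). RAS cells were lower than WT by a smaller step (-0.20; limma adjusted p = 0.0231). That call was lost without RAS replicate 1 (adjusted p = 0.0514), RAS replicate 2 (adjusted p = 0.0936) or WT replicate 3 (adjusted p = 0.0964), though the difference stayed between -0.23 and -0.18 in all 6 refits. AG1478-treated cells differed from untreated MT-HGF cells by 0.11 (95% confidence interval -0.03 to 0.25; limma adjusted p = 0.274). The summed level of fibroblast markers, as the log2 of the sum over 10 genes, lay lowest in RAS cells, with 12.05 to 12.12 in AG1478-treated MT-HGF, 12.02 to 12.11 in MT-HGF, 11.39 to 11.45 in RAS and 12.30 to 12.45 in WT cells. Single fibroblast markers went different ways, with 3 of the 10 higher and 6 lower in MT-HGF than in WT cells (17.1% and 23.9% of all genes). Against WT, RAS cells had 0 higher and 6 lower (12.6% and 19.9% of all genes). The summed level of the 8 melanocyte markers was 13.37 to 13.52 in AG1478-treated MT-HGF, 13.36 to 13.53 in MT-HGF, 13.79 to 13.93 in RAS and 13.72 to 13.85 in WT cells. It was lower in both MT-HGF groups, as Nfkb2 was. Nfkb2 was also lower in RAS than in WT cells, where 0 melanocyte markers were higher and 0 lower (12.6% and 19.9% of all genes). The part of melanocytes and of fibroblasts in the Nfkb2 result was not tested.

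Rela encodes the main activating subunit of the canonical pathway. Its values were 10.13, 10.18 and 10.28 in AG1478-treated MT-HGF cells, 9.98, 10.05 and 10.02 in MT-HGF cells, 10.11, 10.07 and 10.19 in RAS cells, and 10.19, 10.31 and 10.30 in WT cells. The MT-HGF arrays were the lowest and did not overlap any other group, yet the whole spread over the 12 arrays was 0.33 log2 units. Rela was 1.19-fold lower in MT-HGF than in WT cells (-0.25 ± 0.065; SE, n = 3 each; limma adjusted p = 0.00562). The difference of AG1478-treated from untreated MT-HGF cells was 0.18 (95% confidence interval 0.04 to 0.32; limma adjusted p = 0.0707), and that of RAS from WT cells -0.14 (-0.28 to -0.00; limma adjusted p = 0.112). Relb, the partner of the Nfkb2 product, lay at 7.35 to 7.59 in AG1478-treated MT-HGF cells, 7.32 to 7.45 in MT-HGF cells, 7.43 to 7.59 in RAS cells and 7.52 to 7.66 in WT cells. It passed the threshold in none of the 6 comparisons by limma, where 1 had an unadjusted p under 0.05. That was MT-HGF against WT, at -0.20 ± 0.077 (95% confidence interval -0.36 to -0.03; limma adjusted p = 0.0512). The Relb arrays of these groups did not overlap, nor did those of 50.4% of all genes.

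Nfkbia, the gene of IkappaB-alpha, is the classical feedback inhibitor, made afresh each time the factor enters the nucleus. Its values were 10.92, 10.79 and 10.80 in AG1478-treated MT-HGF cells, 11.02, 10.99 and 11.01 in MT-HGF cells, 10.40, 10.40 and 10.29 in RAS cells, and 10.14, 10.01 and 10.09 in WT cells. The 4 groups did not overlap anywhere, with MT-HGF highest and WT lowest. MT-HGF cells were 1.90-fold higher than WT (0.93 ± 0.066; SE, n = 3 each; limma adjusted p = 5.63e-09) and 1.56-fold higher than RAS cells (limma adjusted p = 2.42e-06). RAS cells were 1.22-fold higher than WT (0.28; limma adjusted p = 0.00288). After AG1478 the level was -0.17 log2 units from that of untreated MT-HGF cells (95% confidence interval -0.31 to -0.03), which did not pass the threshold (limma adjusted p = 0.0929). AG1478-treated cells remained 1.69-fold above WT (0.76; limma adjusted p = 8.66e-08).

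Nfkbie encodes IkappaB-epsilon, a further cytoplasmic inhibitor. On all 12 arrays it lay at or below background, at 6.51 to 6.73 in AG1478-treated MT-HGF cells, 6.47 to 6.65 in MT-HGF cells, 6.54 to 6.72 in RAS cells and 6.69 to 6.82 in WT cells, so no difference is given for it. It still counts among the 4 members called lower in MT-HGF than in WT cells (limma adjusted p = 0.0431), a call lost when 5 of the 6 arrays were left out in turn. With a background from all 1228 receptor clusters, filtered or not, the threshold fell to between 6.09 and 6.33, and every array lay above it.

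Nfkbiz encodes a nuclear IkappaB that acts as a cofactor at selected targets and is known in keratinocytes for psoriasis-type responses. It stood at 9.32, 9.39 and 9.29 in AG1478-treated MT-HGF cells, 9.33, 9.33 and 9.38 in MT-HGF cells, 9.05, 9.08 and 9.20 in RAS cells, and 9.12, 9.04 and 9.07 in WT cells. All 6 MT-HGF arrays, treated or not, lay above all 6 of RAS and WT. The difference of MT-HGF from WT was 0.27 ± 0.063 (SE, n = 3 each; limma adjusted p = 0.00241) and from RAS 0.23 (limma adjusted p = 0.0118). RAS and WT differed by 0.04 (95% confidence interval -0.10 to 0.17; limma adjusted p = 0.743), and AG1478-treated and untreated MT-HGF cells by -0.01 (-0.14 to 0.13; limma adjusted p = 0.942).

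Bcl3, a nuclear IkappaB that binds the DNA-bound homodimers of the Nfkb1 and Nfkb2 products, had the widest span of the members, 1.52 log2 units between its lowest and highest arrays. It reached 9.96, 9.93 and 10.25 in AG1478-treated MT-HGF cells, 9.67, 9.69 and 9.78 in MT-HGF cells, 9.05, 8.94 and 9.16 in RAS cells and 8.83, 8.74 and 8.76 in WT cells. The groups formed 4 steps without overlap, in that order from high to low. MT-HGF cells were 1.92-fold above WT (0.94 ± 0.085; SE, n = 3 each; limma adjusted p = 1.21e-07) and 1.58-fold above RAS cells (limma adjusted p = 2.45e-05). AG1478-treated cells were 1.26-fold above untreated MT-HGF cells (0.34 ± 0.085; limma adjusted p = 0.011), and 2.42-fold above WT (limma adjusted p = 3.05e-09). Without AG1478-treated replicate 3, the highest array, the first of these was 0.23 and no longer passed (adjusted p = 0.051). RAS cells were 1.21-fold above WT (0.27; limma adjusted p = 0.019), a call lost without RAS replicate 3 (0.22; adjusted p = 0.0853), WT replicate 2 (0.26; adjusted p = 0.0681) or WT replicate 3 (0.26; adjusted p = 0.0629).

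Tnfaip3 encodes a ubiquitin-editing enzyme that shuts off signalling above the IkappaB kinase. Its values were 8.04, 7.98 and 7.87 in AG1478-treated MT-HGF cells, 8.08, 8.06 and 8.14 in MT-HGF cells, 8.00, 7.78 and 8.12 in RAS cells and 7.66, 7.70 and 7.74 in WT cells. WT was lowest on every array, while the RAS arrays spread widest and overlapped both MT-HGF groups. MT-HGF cells were 1.31-fold above WT (0.39 ± 0.081; SE, n = 3 each; limma adjusted p = 0.000783) and RAS cells 1.2-fold (0.27; limma adjusted p = 0.0173). The RAS call was lost without RAS replicate 1 (adjusted p = 0.0556), RAS replicate 3 (0.19; adjusted p = 0.0948) or WT replicate 1 (adjusted p = 0.0502), and with array weights (0.14; adjusted p = 0.0558). MT-HGF and RAS cells differed by 0.13 (95% confidence interval -0.04 to 0.30; limma adjusted p = 0.289). The difference of AG1478-treated from untreated MT-HGF cells was -0.13 (-0.30 to 0.04; limma adjusted p = 0.298).

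Icam1, an adhesion receptor for leukocyte integrins and a target of the factor, was lower than in WT cells in both RAS and MT-HGF cells and highest after AG1478. Its values were 9.45, 9.34 and 9.45 in AG1478-treated MT-HGF cells, 8.96, 8.78 and 8.74 in MT-HGF cells, 8.57, 8.59 and 8.64 in RAS cells, and 9.06, 9.12 and 9.17 in WT cells. No groups overlapped, and the order from high to low was AG1478-treated MT-HGF, WT, MT-HGF and RAS. RAS cells were 1.43-fold lower than WT (-0.51 ± 0.069; SE, n = 3 each; limma adjusted p = 1.86e-05), and MT-HGF cells 1.22-fold lower (-0.29; limma adjusted p = 0.00277). AG1478-treated cells were 1.5-fold above untreated MT-HGF cells (0.58 ± 0.069; limma adjusted p = 1.47e-05) and also 1.23-fold above WT (0.30; limma adjusted p = 0.00223). MT-HGF cells were above RAS cells by 0.23 (limma adjusted p = 0.0233), a call lost without MT-HGF replicate 1 (0.16; adjusted p = 0.126), RAS replicate 1 (0.21; adjusted p = 0.0678) or RAS replicate 2 (0.22; adjusted p = 0.0681). Endothelial cells and leukocytes also carry Icam1. Of 8 endothelial markers, Egfl7 was above background in every group and the other 7, Cdh5 and Pecam1 among them, in none. Of 11 leukocyte markers, Ptprc was below background in every group, Cd68 was above it in every group (10.08 in AG1478-treated MT-HGF, 10.24 in MT-HGF, 10.25 in RAS and 8.96 in WT cells), and as group means Lyz2 (7.69) and Fcer1g (7.19) were above it in WT cells alone. The part of these cells in the Icam1 order was not tested.

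**Figure D3:**
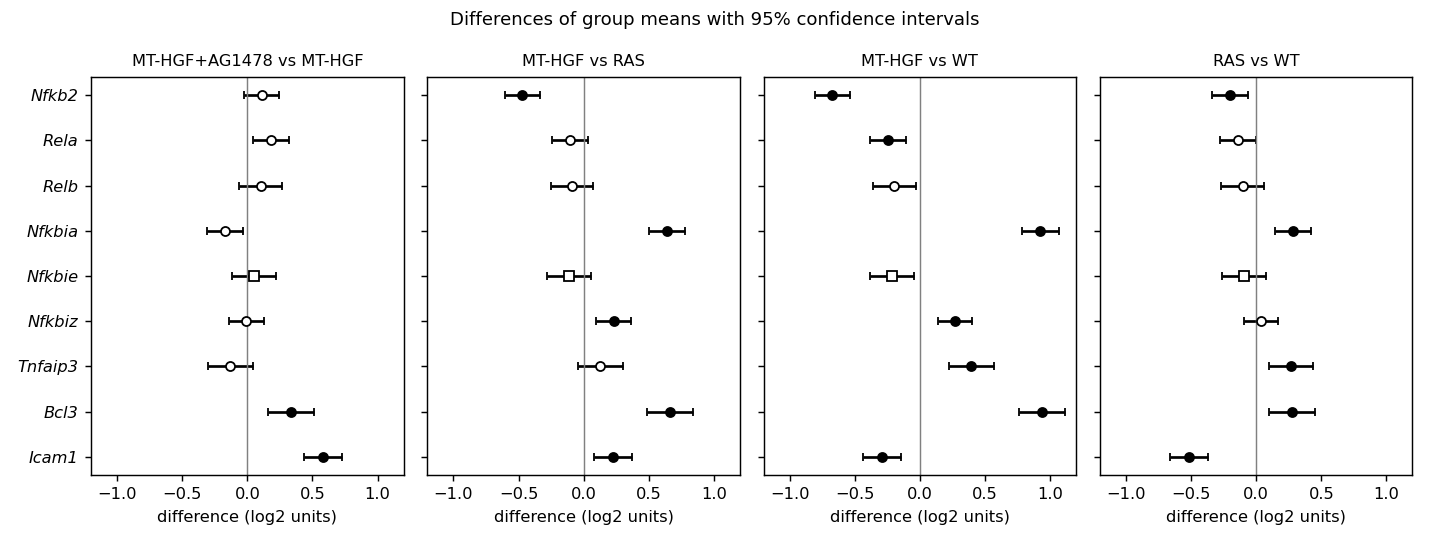
Differences of group means in log2 units (x axis) for the 9 NF-kappaB genes in 4 comparisons, with 95% confidence intervals from limma; filled circles passed an adjusted p under 0.05, open circles did not, and squares mark Nfkbie, at background. Nfkbia is 0.93 and Bcl3 0.94 log2 units higher and Nfkb2 0.67 lower in MT-HGF than in WT cells, and Icam1 is 0.58 higher after AG1478.

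The direct comparison of MT-HGF with RAS cells tests whether the changes from WT, which share the WT arrays, differ in size. Bcl3, Nfkbia, Nfkbiz and Icam1 were higher in MT-HGF than in RAS cells (4 of 9 members; 13.4% of all genes) and Nfkb2 was lower (1 of 9; 12.6% of all genes). For Nfkbia, Bcl3 and Nfkb2 the difference from WT had the same sign in both and was larger in MT-HGF cells. AG1478-treated MT-HGF cells compared with WT had 5 members higher (Nfkbia, Nfkbiz, Tnfaip3, Bcl3 and Icam1; 16.8% of all genes) and 1 lower (Nfkb2; 26.2% of all genes). The Tnfaip3 call there (0.26; limma adjusted p = 0.0141) was lost without AG1478-treated replicate 1 (adjusted p = 0.0641). Compared with RAS cells, 4 were higher (Nfkbia, Nfkbiz, Bcl3 and Icam1; 16.3% of all genes) and 1 lower (Nfkb2; 20.4% of all genes). The largest of these was Bcl3 at 1.00 log2 units, a 2.00-fold difference (limma adjusted p = 1.31e-07), followed by Icam1 at 0.81 (limma adjusted p = 1.39e-07).

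The rest of the pathway was followed with 6 lists of named genes. The other Rel and IkappaB family genes and nuclear regulators numbered 7. In AG1478-treated against untreated MT-HGF cells 1 was higher and 0 lower by limma (2 and 0 at an unadjusted p under 0.05). The one was Rel, the gene of the c-Rel subunit, at 9.73, 9.76 and 9.62 in AG1478-treated MT-HGF cells, 9.21, 9.10 and 9.10 in MT-HGF cells, 8.94, 8.82 and 8.95 in RAS cells, and 9.08, 9.16 and 9.17 in WT cells. The treated arrays stood above all others, by 0.56 ± 0.067 log2 units over untreated MT-HGF cells. All genes had 6.57% higher and 9.91% lower there. In MT-HGF against WT, where all genes had 17.1% and 23.9%, 2 of the list were higher, Nkiras2 (0.32) and Commd1 (0.22), both genes of inhibitors of the pathway (Commd1 above background on 2 of 3 WT arrays), and 1 lower, the repressor gene Nkrf (-0.56 ± 0.084). In RAS against WT, where all genes had 12.6% and 19.9%, 0 were higher by limma (0 at an unadjusted p under 0.05) and 1 lower, Rel (-0.23; limma adjusted p = 0.0135). The Rel call in RAS cells was lost without RAS replicate 2 (adjusted p = 0.0759), WT replicate 2 (adjusted p = 0.0521) or WT replicate 3 (adjusted p = 0.057), and the Commd1 call without MT-HGF replicate 3 (adjusted p = 0.0674), WT replicate 1 (adjusted p = 0.0655) or WT replicate 3 (adjusted p = 0.0537). Nfkbib, the gene of IkappaB-beta, was at 0.20 after AG1478, -0.10 in MT-HGF and -0.15 in RAS cells, and passed in none of these 3 comparisons, 1 of them with an unadjusted p under 0.05.

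Of 28 measured kinase and adaptor genes 7 were higher and 7 lower in MT-HGF than in WT cells (25% in each direction, where all genes had 17.1% higher and 23.9% lower). In RAS cells 6 were higher and 6 lower (21.4% each, where all genes had 12.6% and 19.9%), and after AG1478 3 and 2 (10.7% and 7.14%, where all genes had 6.57% and 9.91%). The shares that were lower in MT-HGF and in RAS cells were thus near those of all genes. Card14, a keratinocyte scaffold protein upstream of the IkappaB kinase, led both rises over WT, at 1.23 ± 0.097 log2 units in MT-HGF cells and 0.99 in RAS cells. Its 3 arrays were at 8.59 to 8.67 in MT-HGF, 8.31 to 8.45 in RAS and 7.19 to 7.69 in WT cells. Irak2, an adaptor kinase of interleukin and Toll-like receptors (0.76), and Ikbke, a kinase related to the IkappaB kinase (0.72), were next in MT-HGF cells. In RAS cells Malt1, the protease partner of the Card scaffolds, was at 0.53, and Rbck1, a subunit of the linear ubiquitin ligase, at -0.46. Group means of Malt1 were 8.34 in MT-HGF, 8.28 in RAS and 7.75 in WT cells. Those of Rbck1 were 10.07 in MT-HGF, 9.87 in RAS and 10.33 in WT cells. Among the IkappaB kinase genes, Ikbkb (catalytic) was at 0.22 in MT-HGF (limma adjusted p = 0.0323) and -0.07 in RAS cells (limma adjusted p = 0.582), and Ikbkg (scaffold) fell by 0.26 in MT-HGF (limma adjusted p = 0.0283) and by 0.38 in RAS cells (limma adjusted p = 0.00327). Neither call in MT-HGF cells was stable to leaving out an array. Ikbkb lost its call without MT-HGF replicate 1 or 2 or WT replicate 1, 2 or 3 (adjusted p between 0.0604 and 0.135), and Ikbkg without any MT-HGF replicate or WT replicate 2 or 3 (adjusted p between 0.0572 and 0.164), where its lowest size was -0.17. After AG1478 Ikbkb was at -0.14 and Ikbkg at 0.07, and neither passed. Chuk was not analysed here, and Map3k14 lay at background or near it (6.72 to 7.12). After AG1478 the Toll-like receptor adaptors Myd88 (0.39) and Ticam1 (0.30) and the ligase subunit gene Rnf31 (0.30) were higher. Myd88 lost its call without MT-HGF replicate 1 (0.28; adjusted p = 0.0603), and Ticam1 without AG1478-treated replicate 3 (0.19; adjusted p = 0.0802), MT-HGF replicate 1 (adjusted p = 0.0605) or MT-HGF replicate 2 (adjusted p = 0.0809), and also in a fit to the compared groups alone (0.30; adjusted p = 0.0557).

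Of 21 measured receptor genes 5 were higher and 8 lower in MT-HGF than in WT cells (23.8% and 38.1%, where all genes had 17.1% and 23.9%). In RAS cells 4 were higher and 5 lower (19% and 23.8%, where all genes had 12.6% and 19.9%), and after AG1478 2 and 3 (9.52% and 14.3%, where all genes had 6.57% and 9.91%). Il1rap, the shared signalling chain of interleukin 1 family receptors, was at 0.87 in MT-HGF and 0.69 in RAS cells. The death receptor gene Fas was not above background in either, and lay at least 0.23 log2 units lower in MT-HGF and at least 0.17 lower in RAS than in WT cells. Eda2r, a receptor of the tumour necrosis factor family, was at -0.72 in MT-HGF and -0.54 in RAS cells. After AG1478 Fas stayed at background and no difference is given. Tlr2, a receptor for bacterial lipoproteins, rose after AG1478 by 0.73 ± 0.059, with arrays at 8.55 to 8.65 in treated and 7.84 to 7.90 in untreated MT-HGF cells. Tnfrsf12a, a further receptor of the tumour necrosis factor family, fell by 0.46 after AG1478.

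The ligands of these receptors had the highest list median in both comparisons with WT. Of 14 measured, 8 were higher and 3 lower in MT-HGF than in WT cells (57.1% and 21.4%, where all genes had 17.1% and 23.9%; median 0.49 log2 units, -0.03 over all genes). In RAS cells 7 were higher and 3 lower (50% and 21.4%, where all genes had 12.6% and 19.9%; median 0.26, -0.02 over all genes). The shares that were lower were near those of all genes in both. The list held 18 genes, and its shares depend on the filter on low values. Without that filter 17 were measured, with 8 higher and 3 lower in MT-HGF and 7 and 3 in RAS cells. Tnf, the gene of tumour necrosis factor, stood at 7.80, 7.61 and 7.96 in AG1478-treated MT-HGF cells, 7.79, 7.70 and 7.75 in MT-HGF cells, 7.49, 7.35 and 7.47 in RAS cells and 7.12, 6.78 and 6.87 in WT cells. It was 0.82 ± 0.094 above WT in MT-HGF and 0.51 above WT in RAS cells, and 0.04 (limma adjusted p = 0.81) after AG1478. In WT cells Tnf was above background on 1 of 3 arrays, with a mean of 6.93 against a mean background of 6.95, so the differences from WT are set against a group at background. The interleukin 36 genes led, with Il1f8 at 3.20 in MT-HGF and 3.01 in RAS cells and Il1f6 higher by at least 3.08 in MT-HGF and at least 1.92 in RAS cells. For Il1f8 2 of 3 WT arrays were above background, and their mean of 6.80 was not. Il1a, the gene of interleukin 1 alpha, was at 2.66 in MT-HGF and 2.17 in RAS cells. After AG1478 1 ligand gene was higher and 3 lower (7.14% and 21.4%, where all genes had 6.57% and 9.91%). Il18 rose by 1.94 ± 0.12, to 8.67, 8.95 and 8.58 in treated cells, against 6.57, 6.82 and 7.0 in untreated MT-HGF cells. Only 1 of the 3 untreated arrays was above background for Il18, and their mean of 6.80 lay below the mean background of 6.91, so the size is that of the fit and not a measured level difference. Il1a fell by 0.79 after AG1478 and Il33 by 0.54.

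**Figure D4:**
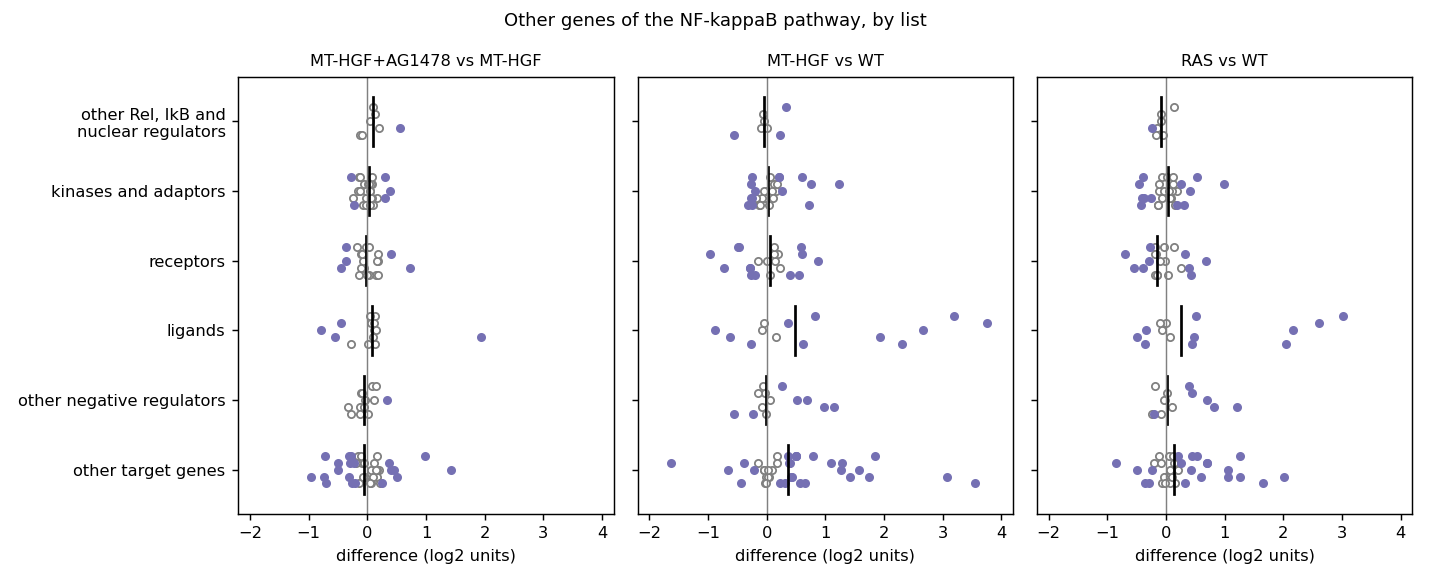
Differences in log2 units (x axis) for the measured genes of 6 lists of the NF-kappaB pathway (y axis) in 3 comparisons; each point is a gene, filled where limma's adjusted p was under 0.05, and vertical bars are list medians. Ligands have a median of 0.49 and other target genes of 0.36 in MT-HGF against WT; fitted values of genes at background are drawn as they stand.

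Negative regulators outside the members had 5 of 13 measured genes higher and 2 lower in MT-HGF than in WT cells (38.5% and 15.4%, where all genes had 17.1% and 23.9%). In RAS cells 5 were higher and 1 lower (38.5% and 7.69%, where all genes had 12.6% and 19.9%). After AG1478 1 was higher and 0 lower by limma, with 2 and 2 at an unadjusted p under 0.05, where 6.57% and 9.91% of all genes were called. Il1rn, the receptor antagonist of interleukin 1, was at 1.14 in MT-HGF and 0.82 in RAS cells. Rnf11, a partner of the Tnfaip3 enzyme, was at 0.97 in MT-HGF and 1.21 in RAS cells, and Irak3, an inhibitory kinase homologue, at 0.70 in RAS cells. Group means of Irak3 were 9.02 in MT-HGF, 9.19 in RAS and 8.49 in WT cells. Zc3h12a, a ribonuclease that degrades inflammatory transcripts, was at 0.69 ± 0.077 in MT-HGF cells and rose by a further 0.34 after AG1478. Its arrays lay at 8.71 to 8.73 in treated MT-HGF, 8.36 to 8.41 in MT-HGF, 7.57 to 7.78 in RAS and 7.60 to 7.87 in WT cells. Tnip1, which binds the Tnfaip3 enzyme, was higher by 0.27 in MT-HGF and 0.38 in RAS cells, and stood at 0.15 after AG1478 (limma adjusted p = 0.13). The deubiquitinase gene Cyld was at -0.01 in MT-HGF (limma adjusted p = 0.959) and -0.23 in RAS cells (limma adjusted p = 0.0661), and at -0.28 after AG1478 (limma adjusted p = 0.0541).

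Of 39 measured genes among other targets, 22 were higher and 5 lower in MT-HGF than in WT cells (56.4% and 12.8%, where all genes had 17.1% and 23.9%; median 0.36). In RAS cells 15 were higher and 5 lower (38.5% and 12.8%, where all genes had 12.6% and 19.9%; median 0.13). After AG1478 7 were higher and 13 lower (17.9% and 33.3%, where all genes had 6.57% and 9.91%; median -0.05). Tnfaip2 had 9.36, 9.22 and 9.23 in AG1478-treated MT-HGF cells, 10.29, 10.26 and 10.16 in MT-HGF cells, 9.21, 8.97 and 9.35 in RAS cells and 7.35, 7.08 and 7.08 in WT cells. It fell by 0.97 after AG1478, while Icam1 rose by 0.58. Among neutrophil chemokine genes, Cxcl5 was higher by at least 2.03 in MT-HGF and at least 0.12 in RAS cells (above background on 2 of 3 RAS arrays), and Cxcl3 by at least 1.42 in MT-HGF and at least 0.83 in RAS cells. Both had lower means after AG1478. Cxcl5 was at 8.27 in treated and 8.98 in untreated MT-HGF cells, and Cxcl3 at 7.64 and 8.36. Lcn2, an antibacterial protein, rose by 1.43 ± 0.099 after AG1478, to 9.16, 8.91 and 9.42, against 7.76, 7.68 and 7.76 in untreated MT-HGF cells. Steap4, a metalloreductase, was higher by at least 0.71 after AG1478. Birc3, an apoptosis inhibitor and component of the receptor complexes, was at 0.05 in MT-HGF (limma adjusted p = 0.667) and -0.02 in RAS cells (limma adjusted p = 0.889), and rose by 0.50 ± 0.070 after AG1478. Its treated arrays lay at 8.40, 8.46 and 8.57, above untreated MT-HGF cells at 7.98, 7.86 and 8.07.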

How the data were processed

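Total RNA of 12 keratinocyte samples in 4 groups of 3 was measured on arrays. The deposited values are log2 expression, made by the authors with RMA, per the submitters' processing notes; the version, and whether the 12 arrays went through 1 run, are not given in the sources used here. RMA quantile-normalizes the arrays of a run to a shared distribution, so values are relative to the other genes of each array, and differences near background are understated. No scanner files were used here. Arrays have no read depth, and 3 arrays per group limit the precision.

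Clusters were named from the platform annotation, which gave 21789 of 35511 clusters 1 symbol, 1621 several and did not list 12101. Clusters had to exceed the 30th percentile of the array on 3 arrays or more; a gene with several kept clusters (815 genes, no NF-kappaB member) was represented by the one with the highest mean. One mean per group was fitted over 12 arrays and 15868 genes in limma (version 3.58.1, under R 4.3.3), and the code was tested on simulated data. Two-sided p-values were adjusted by Benjamini-Hochberg over all genes of each of 6 comparisons; an adjusted p under 0.05 was a call. Where a gene was at or below background on all 3 arrays of the lower group, a difference is a bound against that background. Motifs were sought with a Python script.

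The members and lists were chosen with earlier results of these data known. The text names all members and, of each list, the up to 3 called genes of largest difference whose arrays do not overlap, plus Rel, Nfkbib, Chuk, Ikbkb, Ikbkg, Map3k14, Cyld, Tnip1, Tnf, Il1a and Birc3. Alternatives were the filter, scaling, array weights, a variance trend, the arrays in the fit, a replicate block and leaving out each array.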

Additional observations from a re-analysis of the deposited data

How the results depend on the processing

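No difference of a member changed sign where a call was involved, under any setting tried. Counts of members called stayed within 1.5 times the reported count in every refit that kept all arrays of the compared groups, at 7 to 9 in MT-HGF against WT, 5 in RAS against WT and 2 to 3 in AG1478-treated against untreated MT-HGF cells. Leaving out 1 array at a time gave 3 to 4 members in RAS against WT, where 5 were reported, and 1 to 2 in AG1478-treated against untreated MT-HGF cells, where 2 were. Single members moved across the threshold 35 times in all, 21 of them losing a call. Relb in MT-HGF against WT gained one with a stricter filter (adjusted p = 0.0424), repeated quantile normalization (adjusted p = 0.0258), array weights (adjusted p = 0.0112) and fits to 9 arrays (adjusted p = 0.0343) or 6 (adjusted p = 0.0355). Rela after AG1478 gained one with arrays centred on their medians (0.20; adjusted p = 0.0451) and with repeated quantile normalization (0.24; adjusted p = 0.0122). Array weights gave Rela a call in RAS against WT (-0.20; adjusted p = 0.00178) and took that of Tnfaip3. The 5 members called there were then 2 higher and 3 lower. Rela also gained one with array weights in AG1478-treated MT-HGF cells against WT (-0.14; adjusted p = 0.00789). With array weights, whose estimate stopped short of its tolerance, calls over all genes went up to 8096 in RAS against WT, where 5158 were reported, and to 3925 after AG1478, where 2615 were; the cause was not tested.

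The labels number replicates 1 to 3 in each group without saying what a number shares. Deviations of same-numbered arrays from their group means correlated at -0.44 to 0.53 between groups, so the numbers were not taken as pairs. With a replicate block, 5 members were called in RAS against WT, 8 in MT-HGF against WT and 2 after AG1478, as without it. Over the settings that kept all arrays of the compared groups, list counts gave 57 to 79 calls over the 6 lists in RAS against WT (58 reported), 68 to 84 in MT-HGF against WT (75) and 34 to 43 after AG1478 (36). Leaving out 1 array gave 51 to 57 in RAS against WT, 67 to 74 in MT-HGF against WT and 29 to 34 after AG1478.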

Other observations

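Genes whose values followed a member most closely were looked up over the 12 arrays, which fall into 4 groups, so Pearson's r mainly reflects the 4 group means and is a description only. Nfkb2 was followed most closely by Vim, the gene of the intermediate filament vimentin (r = 0.984), Zfp287 (0.981) and Igsf9b (0.979). Nfkbia was followed by the tight junction gene Cldn7 (0.992), the keratin gene Krt19 (0.989) and Padi3, an enzyme that citrullinates cornified proteins (0.987). The genes nearest to Bcl3 were Smagp (0.989), Ggt6 (0.987) and Reep4 (0.982), and those nearest to Icam1 were Plppr2 (0.986), Sec14l4 (0.977) and Pdgfb, the gene of a growth factor chain (0.974). For Nfkbiz they were Oxct1 (0.969), Mir203 (0.964) and the cystine transporter gene Slc7a11 (0.953), for Tnfaip3 Lrrc20 (0.960), Suv39h2 (0.948) and Pxk (0.945), and for Rela Bdh1 (0.966), Numbl (0.951) and Vipas39 (0.947). Relb was followed by Dclk2 (0.916), Eif2ak1 (0.880) and Elac1 (0.858). Nfkbie lay at background, and its nearest genes are not named.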
